A study of Homo sapiens with 6 samples.

Results

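The YAP and TGF-beta matricellular targets described here are 9 genes, chosen by symbol: CCN1, CCN2, THBS1, ANKRD1, AMOTL2, YAP1, WWTR1, TEAD1 and LATS2. All 9 were found among the 32692 genes of the deposited table, and all 9 reached the average of 1 RPKM that was required for testing, as did 11978 genes in all. RNA-seq was run on total RNA of DU145, an established human prostate carcinoma line, in 3 libraries of cells given OTI-611 at 5 µM for 24 h and in 3 libraries of cells given the solvent DMSO for the same 24 h. OTI-611 is known here by its code name only, and the series title names the chromatin remodeller CHD1L as the target. The line is a single one, and nothing in the labels ties the libraries of a group to separate cultures, so that p-values cover only the spread between these libraries, which may be technical.

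YAP, encoded by YAP1, and its paralog TAZ, encoded by WWTR1, are transcriptional coactivators that bind no DNA themselves and reach genes through TEAD factors such as TEAD1. In the Hippo pathway the kinases LATS1 and LATS2 phosphorylate YAP and TAZ and so keep them out of the nucleus, while angiomotin family proteins such as AMOTL2 hold them in the cytoplasm. CCN1, CCN2, THBS1, ANKRD1, AMOTL2 and LATS2 are widely used target genes of YAP or TAZ, and CCN2 and THBS1 are also induced by TGF-beta through SMAD factors. In carcinoma cells these pathways are known for their links to adhesion, cell spreading and growth. AMOTL2 and LATS2 restrain YAP and are its targets, which forms a feedback loop.

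Promoter sequences are given for the 4 target genes that were lower with OTI-611 and whose RefSeq window (GRCh38.p14, 250 bases before to 50 bases after the transcript start) holds a TEAD motif before the start. The windows are chr6:131951323-131951622 on the minus strand for CCN2, chr15:39580829-39581128 on the plus strand for THBS1, chr10:90921038-90921337 on the minus strand for ANKRD1 and chr3:134374398-134374697 on the minus strand for AMOTL2. Capitals mark the TEAD motif GGAATG on either strand and, in ANKRD1, also the AP-1 motif TGANTCA. Each sequence is written on the strand of the gene, from its 5′ to its 3′ end, so that the positions of the motifs before the start can be compared between genes.
CCN2: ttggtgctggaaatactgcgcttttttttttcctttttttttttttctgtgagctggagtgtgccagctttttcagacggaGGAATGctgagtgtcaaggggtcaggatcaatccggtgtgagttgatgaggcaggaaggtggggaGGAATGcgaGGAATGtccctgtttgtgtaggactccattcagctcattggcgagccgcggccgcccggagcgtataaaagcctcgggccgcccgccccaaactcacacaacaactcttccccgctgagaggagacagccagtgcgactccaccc
THBS1: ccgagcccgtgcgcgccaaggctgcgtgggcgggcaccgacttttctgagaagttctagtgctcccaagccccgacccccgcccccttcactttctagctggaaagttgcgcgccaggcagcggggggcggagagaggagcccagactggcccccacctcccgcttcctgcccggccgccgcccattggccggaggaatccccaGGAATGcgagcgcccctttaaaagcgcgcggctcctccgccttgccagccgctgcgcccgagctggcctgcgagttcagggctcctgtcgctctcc
ANKRD1: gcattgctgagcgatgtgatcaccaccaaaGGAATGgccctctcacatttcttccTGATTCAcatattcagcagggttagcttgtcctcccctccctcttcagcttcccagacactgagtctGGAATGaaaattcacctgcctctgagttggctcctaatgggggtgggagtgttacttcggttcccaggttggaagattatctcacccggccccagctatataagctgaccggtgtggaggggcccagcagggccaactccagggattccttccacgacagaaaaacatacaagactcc
AMOTL2: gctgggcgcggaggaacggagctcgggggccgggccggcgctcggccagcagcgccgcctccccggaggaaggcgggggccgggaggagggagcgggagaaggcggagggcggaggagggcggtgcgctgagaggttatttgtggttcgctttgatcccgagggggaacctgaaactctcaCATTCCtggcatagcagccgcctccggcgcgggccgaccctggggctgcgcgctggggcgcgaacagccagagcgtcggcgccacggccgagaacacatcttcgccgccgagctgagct
CCN2 holds 3 matches of the TEAD motif, ANKRD1 holds 2, and THBS1 and this window of AMOTL2 hold 1 each. RefSeq windows were at hand for 7 of the 9 genes, 9 windows in all, and CCN1 and TEAD1 are named only. A TEAD motif was present in 6 of these 9 windows, one window each of CCN2, THBS1, ANKRD1, AMOTL2, YAP1 and LATS2, against 14.0% of all 35116 windows of the same length. The AP-1 motif was in 1 window, against 7.71% of all windows, and the CArG box bound by serum response factor was in 0, against 1.29% of all windows. Most of the 9 genes are known targets of YAP or TAZ, which act through TEAD factors, so this share does not bear on the response to OTI-611. YAP1, which was higher with OTI-611, also holds a TEAD motif before the start. No match overlapped another, and a match describes letters, not binding.

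The values are treated as RPKM, that is, reads divided by the length of the gene and the depth of the library, so that levels can be compared between genes. From the spacing of low values, the depth was estimated at 37.3 M to 37.7 M reads per OTI-611 library, against 30.7 M in DMSO 2 and 32.4 M in DMSO 3, with 70.9% to 72.3% of low values within 0.05 of a whole read. At these depths the lowest estimate for any of the 9 genes was 1715 reads, for THBS1 in OTI-611 2. The DMSO 1 library has no decimals and is taken as RPKM cut to whole numbers, and its depth could not be estimated. Among 5669 genes at 10 RPKM or more in the mean of DMSO 2 and DMSO 3, DMSO 1 differed from that mean by -2.01% in the median, and each fold change and ratio was therefore also computed without DMSO 1. The carcinoma markers KRT8, KRT18, KRT19, EPCAM and CDH1 were detected and CLDN7 was under 1 RPKM, and these 6 markers summed to 471 to 518 RPKM with OTI-611 and 503 to 529 RPKM with DMSO. Single markers moved within these sums: CDH1 averaged 1.54 RPKM with OTI-611 and 4.40 RPKM with DMSO (log2 fold change -1.09, limma adjusted p = 7.11e-06), and KRT8 averaged 105 RPKM with OTI-611 and 149 RPKM with DMSO (-0.50, limma adjusted p = 1.07e-06). KRT19 averaged 271 RPKM with OTI-611 and 247 RPKM with DMSO (0.13, limma adjusted p = 0.0281, and 0.104 without DMSO 1), and the part of these markers in the other results was not tested. All 5 fibroblast markers of the table stayed under 1 RPKM in every library, with sums of 0.172 to 0.218 RPKM with OTI-611 and 0 to 0.778 RPKM with DMSO. The 0 is DMSO 1, where a value under 1 RPKM reads as 0. COL1A1 had 0.661 RPKM in DMSO 2 and 0.735 RPKM in DMSO 3, against 0.163 to 0.190 RPKM with OTI-611. The 4 endothelial and 4 leukocyte markers also stayed under 1 RPKM in every library.

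With OTI-611 the target genes CCN2, THBS1, AMOTL2, ANKRD1 and LATS2 were lower than with DMSO, and CCN1 and the coactivator genes YAP1 and WWTR1 were higher. THBS1 had the largest difference of the 9 genes and fell to 0.318 of its DMSO level. In limma over all genes tested, 8 of the 9 genes passed an adjusted p of 0.05 (Benjamini-Hochberg), 3 higher and 5 lower, while TEAD1 did not. Of all genes tested 65.2% passed, 27.8% higher and 37.3% lower. Without DMSO 1 the same 8 genes passed in the same directions, where 68.7% of all genes passed, 26.3% higher and 42.4% lower. The OTI-611 and DMSO libraries did not overlap in any of the 9 genes, against 70.2% of all genes tested. The median log2 fold change of the 9 genes, on the log2(value + 1) scale used for all log2 fold changes, was -0.15, against -0.05 over all genes tested. Levels are shares of each library's RNA, so a change of a gene and a change of the rest of the RNA cannot be told apart. Nor can fewer cells that hold its RNA and less of its RNA per cell.

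**Figure D1:**
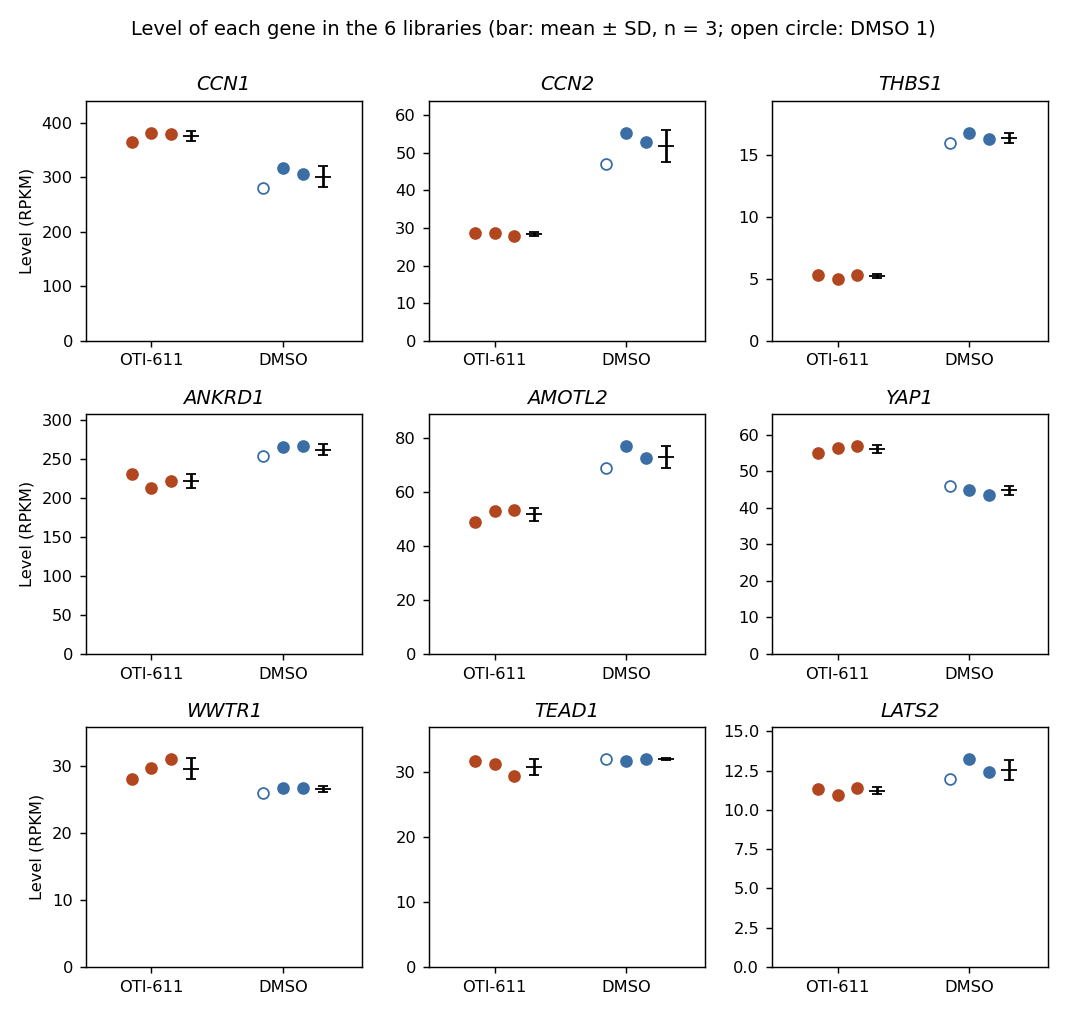
Level in RPKM (y axis, from 0) of each of the 9 genes in the 3 OTI-611 and the 3 DMSO libraries, with the mean ± SD beside them (n = 3); the open circle is DMSO 1, which holds whole numbers. THBS1 averaged 5.22 RPKM with OTI-611 and 16.4 RPKM with DMSO, whereas CCN1 averaged 376 RPKM with OTI-611 and 301 RPKM with DMSO.

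THBS1 encodes thrombospondin-1, a matricellular glycoprotein that can activate latent TGF-beta and restrain angiogenesis. It had 5.35, 5.02 and 5.29 RPKM in OTI-611 libraries 1 to 3, against 16, 16.8 and 16.3 RPKM in DMSO libraries 1 to 3. Every OTI-611 library lay far below every DMSO library, and within each group the values were close together. The means were 5.22 ± 0.18 RPKM with OTI-611 and 16.4 ± 0.43 RPKM with DMSO (SD, n = 3 each), a log2 fold change of -1.48 ± 0.045 (SE, limma adjusted p = 1.92e-08). Its absolute log2 fold change was above that of 99.2% of the genes tested. For the other members this share ran from 11.3% for TEAD1 to 92.9% for CCN2. It was 75.6% for AMOTL2, 57.6% for CCN1, 57.4% for YAP1, 30.9% for WWTR1 and 30.3% for LATS2. In level, THBS1 stood above 37.4% of tested genes with OTI-611 and above 67.4% with DMSO. It lies on chromosome 15 from 39581079 to 39599466 (GRCh38, GENCODE v29), and 7.58% of its exon bases are also exons of other genes, the sperm-flagellum gene FSIP1 (at most 0.416 RPKM) and an antisense RNA among them.

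CCN2, also called connective tissue growth factor, encodes a secreted matricellular protein that binds integrins and is a standard readout of both YAP and TGF-beta signalling. Its values were 28.6, 28.6 and 27.7 RPKM with OTI-611, against 47, 55.4 and 52.8 RPKM with DMSO. The OTI-611 libraries were nearly alike, and the lowest DMSO library, DMSO 1, still lay above all of them. Mean levels were 28.3 ± 0.51 RPKM with OTI-611 and 51.7 ± 4.3 RPKM with DMSO (SD, n = 3 each), a log2 fold change of -0.84 ± 0.053 (SE, limma adjusted p = 1.14e-06), and the difference was -0.91 ± 0.035 without DMSO 1. CCN2 lies on chromosome 6 from 131948176 to 131951373, and 8.34% of its exon bases are shared with an antisense RNA. Its promoter window, printed above, holds the largest number of TEAD motif matches among the windows of these genes.

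CCN1, also called CYR61, encodes the closest relative of CCN2 in this set, a secreted protein of the same domain architecture that likewise binds integrins. It moved the other way. The 3 OTI-611 libraries had 365, 382 and 379.6 RPKM, against 281, 317 and 305 RPKM in the DMSO libraries. The lowest OTI-611 library lay above the highest DMSO library, and DMSO 1 was the lowest of all. Mean CCN1 was 376 ± 9.2 RPKM with OTI-611 and 301 ± 18.5 RPKM with DMSO (SD, n = 3 each), with a log2 fold change of 0.32 ± 0.042 (SE, limma adjusted p = 0.000132) and of 0.27 ± 0.032 without DMSO 1 (limma adjusted p = 0.000270). CCN1 was the most abundant of the 9 genes in both groups, above 99.4% of tested genes with OTI-611 and above 99.1% with DMSO. It lies on chromosome 1 from 85580761 to 85583962, with 0% of its exon bases shared.

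The opposite differences of CCN1 on one side and CCN2 and THBS1 on the other show in ratios taken within a library. Such ratios do not depend on how libraries are scaled. CCN2 stood at 7.84%, 7.48% and 7.30% of the CCN1 level in the OTI-611 libraries, against 16.7%, 17.4% and 17.3% in the DMSO libraries. Log2 ratios were taken of the values themselves, without 1 added. The log2 ratio of CCN2 over CCN1 was lower by 1.18 in the OTI-611 group, with means of -3.73 ± 0.052 for OTI-611 and -2.54 ± 0.032 for DMSO (SD, n = 3 each). THBS1 stood at 1.47%, 1.31% and 1.39% of CCN1 with OTI-611, against 5.69%, 5.31% and 5.35% with DMSO, a difference of -1.97 in log2 ratio. In an exact two-sided permutation test each of these ratios reached p = 0.1, the smallest value that 3 against 3 libraries allow, and p adjusted over the 3 ratios tested was 0.1. The design cannot pass a threshold of 0.05 for a single ratio.

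**Figure D2:**
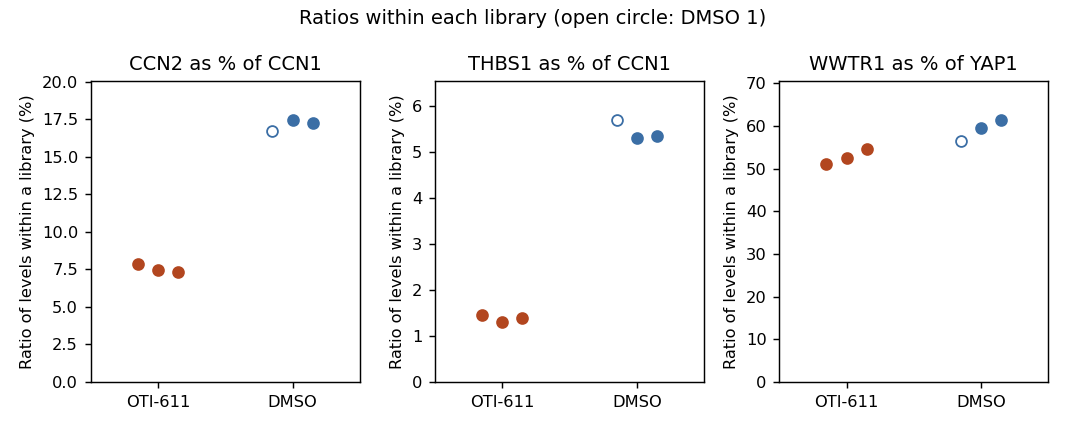
Ratio of levels within each library in percent (y axis, from 0) for CCN2 over CCN1, THBS1 over CCN1 and WWTR1 over YAP1, for the 3 OTI-611 and the 3 DMSO libraries; the open circle is DMSO 1. The CCN2 ratio lies between 7.30% and 7.84% in the OTI-611 libraries and between 16.7% and 17.4% in the DMSO libraries, and none of the 3 ratios overlaps between groups.

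ANKRD1 encodes an ankyrin repeat protein of the nucleus and cytoplasm that is best known in heart muscle and serves as a YAP readout in many cell lines. It had 229.8, 213 and 221 RPKM with OTI-611, against 253, 265 and 267 RPKM with DMSO. The groups did not overlap, although the OTI-611 and DMSO values lay closer together than for CCN2. The means of 221 ± 8.4 RPKM with OTI-611 and 262 ± 7.5 RPKM with DMSO (SD, n = 3 each) gave a log2 fold change of -0.24 ± 0.033 (SE, limma adjusted p = 0.000179). This absolute difference was above that of 46.0% of the genes tested, near the middle of the table. ANKRD1 lies on chromosome 10 from 90912096 to 90921276, with 0% of its exon bases shared.

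AMOTL2, whose protein binds YAP and ties it to junctions and actin, had 49.0, 53.1 and 53.5 RPKM with OTI-611, against 69, 77.3 and 72.7 RPKM with DMSO. All OTI-611 libraries were below all DMSO libraries. Its mean fell to 51.9 ± 2.4 RPKM with OTI-611, against 73.0 ± 4.2 RPKM with DMSO (SD, n = 3 each; log2 fold change -0.48 ± 0.047 SE, limma adjusted p = 1.62e-05). AMOTL2 lies on chromosome 3 from 134355874 to 134375479, and 3.13% of its exon bases are shared with the ribosomal protein pseudogene RPL39P5, which was at most 0.206 RPKM.

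LATS2, the kinase of the feedback loop, and WWTR1 were the called genes with the smallest differences. LATS2 had 11.3, 11.0 and 11.4 RPKM with OTI-611, against 12, 13.3 and 12.4 RPKM with DMSO. The groups were separate, but DMSO 1 lay only slightly above the OTI-611 libraries. The log2 fold change was -0.15 ± 0.046 (SE, limma adjusted p = 0.0182), from means of 11.2 ± 0.22 RPKM with OTI-611 and 12.6 ± 0.65 RPKM with DMSO (SD, n = 3 each). This call was lost without OTI-611 2, where the log2 fold change was -0.13 (limma adjusted p = 0.0633), and without DMSO 2, where it was -0.11 (limma adjusted p = 0.0727). LATS2 lies on chromosome 13 from 20973032 to 21061547, with 0% of its exon bases shared.

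Of YAP1, WWTR1 and TEAD1, the members that carry the signal to DNA, YAP1 rose most. It had 54.9, 56.4 and 57.0 RPKM with OTI-611, against 46, 44.9 and 43.6 RPKM with DMSO, so that the groups stood well apart. Mean YAP1 was 56.1 ± 1.1 RPKM with OTI-611 and 44.8 ± 1.2 RPKM with DMSO (SD, n = 3 each), a log2 fold change of 0.32 ± 0.030 (SE, limma adjusted p = 1.47e-05). YAP1 lies on chromosome 11 from 102110461 to 102233423, and 9.97% of its exon bases are shared with an antisense RNA.

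WWTR1, the TAZ gene, had 28.0, 29.6 and 31.1 RPKM with OTI-611, against 26, 26.8 and 26.7 RPKM with DMSO. The lowest OTI-611 library was only just above the highest DMSO library. The means were 29.6 ± 1.5 RPKM with OTI-611 and 26.5 ± 0.43 RPKM with DMSO (SD, n = 3 each; log2 fold change 0.15 ± 0.040 SE, limma adjusted p = 0.00805). Within libraries WWTR1 stood at 51.1% to 54.5% of YAP1 with OTI-611 and at 56.5% to 61.3% with DMSO, a difference of -0.17 in log2 ratio (exact two-sided permutation test, p = 0.1, adjusted 0.1 over the 3 ratios). WWTR1 lies on chromosome 3 from 149517235 to 149736714, and 9.45% of its exon bases are shared with WWTR1-AS1, an antisense RNA that was at most 0.862 RPKM.

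TEAD1, the DNA-binding partner, had 31.6, 31.2 and 29.3 RPKM with OTI-611, against 32, 31.7 and 31.9 RPKM with DMSO. The highest OTI-611 library lay just under the lowest DMSO library, a gap far smaller than the spread within the OTI-611 group. Its log2 fold change of -0.05 ± 0.034 (SE) did not pass in limma (adjusted p = 0.203), and the 95% interval ran from -0.13 to 0.02. Without DMSO 1 the interval was -0.15 to 0.04. A difference of TEAD1 inside these bounds remains compatible with these libraries. TEAD1 lies on chromosome 11 from 12674591 to 12944483, with 0% of its exon bases shared.

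**Figure D3:**
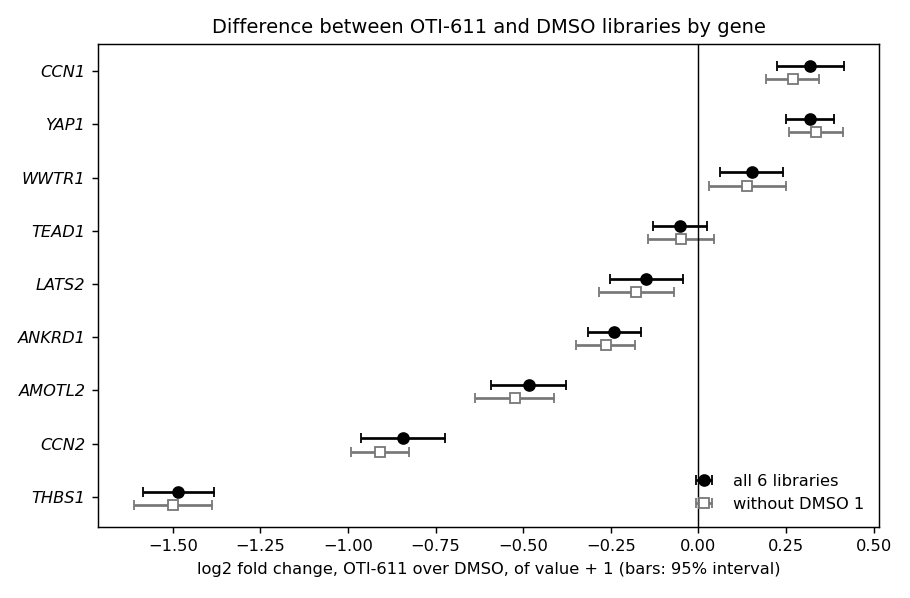
Log2 fold change of OTI-611 over DMSO (x axis, of value + 1) for each of the 9 genes with its 95% interval from limma, over all 6 libraries (filled circles) and without DMSO 1 (open squares). THBS1 is lowest at -1.48, CCN1 and YAP1 are highest at 0.32, and the intervals of TEAD1 alone include 0.

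In order of mean level, the OTI-611 group ran CCN1, ANKRD1, YAP1, AMOTL2, TEAD1, WWTR1, CCN2, LATS2 and THBS1. Within it the libraries of TEAD1 and WWTR1 overlapped, as did those of WWTR1 and CCN2, and the other neighbours were separate. The DMSO group ran CCN1, ANKRD1, AMOTL2, CCN2, YAP1, TEAD1, WWTR1, THBS1 and LATS2, with no overlap between neighbours. CCN2 thus held place 7 with OTI-611 and place 4 with DMSO, and THBS1 place 9 with OTI-611 and place 8 with DMSO. DMSO 1 touched the genes unequally. Its difference from the mean of DMSO 2 and DMSO 3 was -13.0% for CCN2, -9.77% for CCN1, -7.98% for AMOTL2 and -6.49% for LATS2, -4.89% for ANKRD1, and 3.99% for YAP1 and 0.569% for TEAD1. Dropped decimals can take at most 1 RPKM from a value and add none, which is less than the gaps of CCN1, CCN2, AMOTL2 and ANKRD1 and opposite to that of YAP1, and what else sets DMSO 1 apart was not tested.

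Genes closest to the matricellular members over the 6 libraries were found by the Euclidean distance between log2(value + 1) profiles centred on each gene's mean. For THBS1 the nearest were the splicing factor gene SRSF3 (distance 0.045, log2 fold change -1.48), the RNA gene MIR1915HG (0.091) and the aldo-keto reductase gene AKR1B10 (0.10). For CCN2 they were the endonuclease domain gene ENDOD1 (0.045), RSKR (0.053) and the kinase gene PASK (0.066), and for CCN1 the endoplasmic reticulum lectin gene OS9 (0.046), the nuclear body gene SP100 (0.046) and PLEKHG3 (0.054). The distance includes the difference between the groups, which 65.2% of all genes tested showed. Adding 1 shrinks differences at low levels, so near profiles need not have like ratios of RPKM. AKR1B10 averaged 0.725 RPKM with OTI-611 and 3.98 RPKM with DMSO, MIR1915HG 1.57 and 6.21 RPKM, and THBS1 5.22 and 16.4 RPKM. The neighbours of CCN2 averaged 5.41 to 7.86 RPKM with DMSO, where the dropped decimals of DMSO 1 weigh more than at the level of CCN2.

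Other genes of the pathways were taken from 8 lists that overlap one another and hold several of the 9 genes. Their counts stand against 27.8% higher and 37.3% lower among all genes tested, and several lie near those shares. In a list of 22 YAP and TAZ targets, which includes 5 of the 9 genes, 6 of 21 tested members were higher, 11 were lower and 4 did not pass, beside 27.8% and 37.3% of all genes tested. The median log2 fold change was -0.15, against -0.05 over all genes tested, but 0.045 over the members with a mean of at least 5. ARHGEF17, a guanine nucleotide exchange factor, had 3.49, 3.39 and 3.21 RPKM with OTI-611, against 7, 7.79 and 7.42 RPKM with DMSO (log2 fold change -0.94, limma adjusted p = 1.55e-06). Every OTI-611 library was below every DMSO library. NT5E, the ecto-nucleotidase CD73, rose to 54.2 ± 0.44 RPKM with OTI-611, against 41.6 ± 0.30 RPKM with DMSO (SD, n = 3 each). GADD45A, a stress and growth-arrest gene, rose to 188 ± 16.2 RPKM with OTI-611, against 77.8 ± 9.8 RPKM with DMSO (SD, n = 3 each), the largest rise in the list.

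Of 23 tested kinases, adaptors and upstream regulators of the Hippo pathway, 8 were higher, 11 were lower and 4 were not called (27.8% and 37.3% over all genes tested), and their median of -0.09 (log2 fold change) became 0.0056 under quantile normalization. FRMD6, a FERM-domain protein that acts upstream of the kinases, had the largest rise, with 63.0, 68.5 and 69.4 RPKM with OTI-611 against 32, 30.7 and 32.0 RPKM with DMSO (log2 fold change 1.06, limma adjusted p = 6.32e-08). MAP4K4, a kinase that can act on LATS1 and LATS2, rose to 40.2 ± 1.1 RPKM with OTI-611, against 26.4 ± 0.32 RPKM with DMSO (SD, n = 3 each). Among upstream scaffolds, WWC1, which encodes KIBRA, fell by 0.62 and NF2, which encodes merlin, fell by 0.51 on the log2 scale. LATS1, named after its values were seen, was higher by 0.38 on that scale (limma adjusted p = 0.000214), the opposite direction to LATS2.

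Among the coactivators, TEAD and VGLL factors, 3 of 7 tested genes were higher, 2 were lower and 2 did not pass, and 65.2% of all genes tested passed. Their median log2 fold change of 0.03 turned to -0.0088 without DMSO 1 and to -0.0090 without OTI-611 3. TEAD4 had 11.3, 11.7 and 11.2 RPKM with OTI-611, against 15, 15.3 and 14.4 RPKM with DMSO (log2 fold change -0.36, limma adjusted p = 4.73e-05). TEAD2 also fell, by 0.46 on the log2 scale (limma adjusted p = 0.00403), while VGLL4, whose protein competes with YAP for TEAD factors, was higher by 0.48 (limma adjusted p = 0.000430). TEAD1 remained the most abundant TEAD gene in both groups, ahead of TEAD4, which averaged 11.4 RPKM with OTI-611 and 14.9 RPKM with DMSO. TEAD3, named after its values were seen, averaged 5.43 RPKM with OTI-611 and 5.31 RPKM with DMSO.

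Of 19 matricellular genes listed 8 were tested, and 2 of these were higher, 5 were lower and 1 was not called, where 27.8% and 37.3% of all genes tested were. The median log2 fold change of -0.60 depended on the filter: it was -0.0024 with no filter on low values and -0.82 with a minimum mean of 5. TGFBI, a TGF-beta-induced matrix protein, had 68.3, 65.2 and 65.8 RPKM with OTI-611, against 118, 118 and 119 RPKM with DMSO (log2 fold change -0.82, limma adjusted p = 2.29e-08). CCN5, a further CCN family gene, fell to 2.17 ± 0.081 RPKM with OTI-611, against 6.29 ± 0.36 RPKM with DMSO (SD, n = 3 each). CCN5, CCN2, THBS1 and TGFBI were the 4 tested genes of lowest p in this list. All of them had libraries lower with OTI-611 without overlap, which that choice makes likely, and 70.2% of all genes tested had no overlap. Besides CCN1, the gene that rose was TNC, tenascin-C, named after its values were seen, at 28.0 ± 0.21 RPKM with OTI-611 and 18.8 ± 0.68 RPKM with DMSO (SD, n = 3 each; log2 fold change 0.55, limma adjusted p = 1.21e-06). Among 9 tested integrin and other receptor genes 4 were higher, 3 were lower and 2 were not called (27.8% and 37.3% over all genes tested), around a median of 0.24 that became 0.016 with no filter on low values and 0 with whole numbers. ITGA3 rose by 0.85, ITGB5 by 0.64, ITGA6 by 0.36 and ITGB1 by 0.31 on the log2 scale, each an integrin subunit. Not all integrin subunits of the list rose, as 2 named after their values were seen show. ITGAV was lower by 0.21 (limma adjusted p = 0.000548), and ITGB3 did not pass (limma adjusted p = 0.0965).

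In the TGF-beta pathway, 7 of 17 tested ligand, latency, receptor and SMAD genes were higher, 7 were lower and 3 were not called (27.8% and 37.3% over all genes tested), and the median log2 fold change of -0.05 became 0.060 under quantile normalization. SMAD3, one of the factors that carry the signal to DNA, had 21.7, 20.8 and 21.2 RPKM with OTI-611, against 35, 35.0 and 35.2 RPKM with DMSO (log2 fold change -0.70, limma adjusted p = 1.28e-07). Its DMSO libraries were nearly identical and none overlapped the OTI-611 libraries. SMAD2 and SMAD4, named after their values were seen, were higher by 0.40 and 0.45 on the log2 scale. TGIF1, a corepressor that binds SMAD proteins, rose to 57.4 ± 1.8 RPKM with OTI-611, against 28.1 ± 1.4 RPKM with DMSO (SD, n = 3 each). The ubiquitin ligase genes SMURF2 and SMURF1, whose proteins mark receptors and SMADs for degradation, were higher by 0.64 and 0.41 on the log2 scale.

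Of 13 tested TGF-beta target genes 2 were higher, 6 were lower and 5 were not called (27.8% and 37.3% over all genes tested). The median log2 fold change was -0.17, and it was -0.27 with no filter and -0.83 with a minimum mean of 5, which neither higher member reached. CCN2, THBS1 and TGFBI are in this list too, and BHLHE40, a transcriptional repressor, fell to 4.89 ± 0.68 RPKM with OTI-611, against 13.5 ± 1.4 RPKM with DMSO (SD, n = 3 each). The 2 higher members, named after their values were seen, were SKIL (log2 fold change 0.54, limma adjusted p = 0.00127) and IL11 (0.50, limma adjusted p = 0.000518). SMAD7 and PMEPA1, also named after their values were seen, did not pass (limma adjusted p = 0.309 and 0.362). CCN1 and CCN2 are also targets of serum response factor, which answers to actin. In that list 4 of 16 tested genes were higher, 7 were lower and 5 were not called, near the 27.8% and 37.3% of all genes tested, and the median of -0.01 became 0.026 under quantile normalization and 0.0072 when libraries were rescaled by their median ratio. TPM1, a tropomyosin, fell to 15.3 ± 0.40 RPKM with OTI-611, against 30.5 ± 0.81 RPKM with DMSO (SD, n = 3 each), and CNN2, a calponin, fell by 0.51 on the log2 scale. FHL2, a LIM-domain cofactor, rose by 0.82 on that scale.

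**Figure D4:**
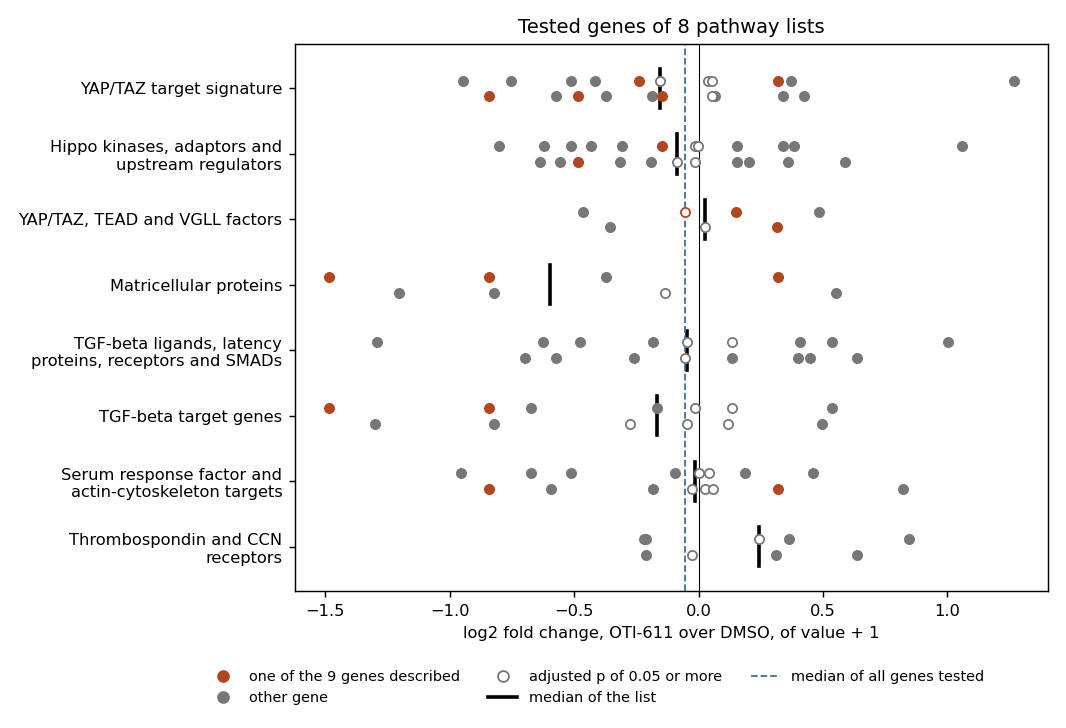
Log2 fold change of OTI-611 over DMSO (x axis, of value + 1) for the tested genes of 8 pathway lists, with the 9 genes in red, genes under the threshold of 0.05 filled, the median of each list as a black bar and that of all genes tested as a dashed line. Every list holds genes on both sides of 0, and the matricellular list has its median at -0.60, the lowest of the 8 at this filter, though not with a minimum mean of 5 or with no filter.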

How the data were processed

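The authors deposited 1 table for 6 libraries without naming its unit. Its 5 columns with decimals were taken as RPKM that the authors had divided by gene length and depth before they deposited them, judged from the values alone; FPKM would look alike. The deposited column DMSO 1 holds whole numbers only and is treated as a score on the same scale. Per the submitters' processing notes, TopHat2 2.0.9, Cufflinks 2.1.1, HTSeq, CASAVA 1.7, FastQC and the mouse build mm10 were involved. Yet all 32692 IDs are human, so the build and annotation behind the values remain unknown here. Per the labels' protocols, messenger RNA was amplified by the Geo-seq method.

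Genes with a mean of at least 1 were tested on log2(value + 1) with limma 3.58.1 in R 4.3.3, group as the only term, a mean-variance trend, Benjamini-Hochberg adjustment over 11978 genes and a threshold of 0.05. The script was tested on simulated data. Count tests planned in case of counts were not run. Ratios were compared by exact permutation in scipy 1.17.1. Depths were estimated with GENCODE v29 exon lengths, in which 30667 IDs were found, and RPKM of overlapping or antisense genes are uncertain, as strand use is not given.

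Named genes were the 9 genes, the 4 tested genes of lowest p per list, and the 3 nearest profiles of CCN1, CCN2 and THBS1; markers and genes chosen after their values were seen were added. The members and lists were chosen with earlier results of these data known, and some genes of the lists are not reported here. Alternatives covered the pseudocount, filters, scaling, whole numbers, the trend, each library left out and the replicate block.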

Additional observations from a re-analysis of the deposited data

How the results depend on the processing

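Over all alternatives, 133 values of the 9 genes kept their direction and their side of the threshold, and the 2 others were LATS2 without OTI-611 2 and without DMSO 2. With each library left out in turn, the LATS2 log2 fold change ranged from -0.18 to -0.11, that of CCN1 from 0.27 to 0.36, of CCN2 from -0.91 to -0.79 and of THBS1 from -1.50 to -1.46, and 7 or 8 of the 9 genes were called. The number of genes called over the whole table ranged from 5879 with a minimum mean of 5, where fewer genes were tested, to 8226 without DMSO 1, against 7805, and it was 6784 with all libraries as whole numbers. The medians of 5 lists changed sign: the YAP and TAZ targets to 0.045 with a minimum mean of 5, the Hippo regulators to 0.0056 and the TGF-beta pathway to 0.060 after quantile normalization, the coactivator and TEAD factors to -0.0088 without DMSO 1 and -0.0090 without OTI-611 3 (between -0.0090 and 0.076 with each library left out in turn), and the serum response factor list to 0.026 after quantile normalization and 0.0072 after rescaling; the cause was not tested. Of the other list values, 10 moved: the matricellular median to -0.0024 with no filter, -0.82 with a minimum mean of 5 and -0.78 with whole numbers, the TGF-beta target median to -0.27 with no filter and -0.83 with a minimum mean of 5, the receptor median to 0.016 with no filter and 0 with whole numbers, and, with a minimum mean of 5, the number of lower YAP and TAZ targets to 7, of lower matricellular genes to 3 and of higher TGF-beta targets to 0, as neither higher member reached that mean. The labels do not say whether replicate numbers pair the libraries. Deviations of same-numbered libraries correlated at 0.019, 0.00041 and -0.058 over 11978 genes, and not every library correlated best with its own number. With so few libraries per group, such correlations cannot decide whether the libraries were paired. With the replicate block 7756 genes were called, among them 8 of the 9, and the paired test of each ratio gave an exact p = 0.25, the smallest 3 pairs allow. DESeq2 and the other count-based alternatives were not run, since the table holds no counts.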

Other observations

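A pair of genes of these pathways that are prominent in other cells were scarcely detected here and were chosen after their values were seen. COL1A1, a fibrillar collagen gene, averaged 0.174 RPKM with OTI-611 and 0.465 RPKM with DMSO, and ACTA2, smooth muscle actin, 0.244 RPKM with OTI-611 and 0.555 RPKM with DMSO. These means include DMSO 1 without decimals, and neither gene reached the minimum for testing. Further genes of the TGF-beta pathway list were also chosen after their values were seen. SMAD6, an inhibitory SMAD, had 0.428, 0.324 and 0.194 RPKM with OTI-611, against 2, 2.43 and 2.22 RPKM with DMSO (log2 fold change -1.29, limma adjusted p = 3.02e-05). The ligand genes TGFB1 and TGFB2 were lower by 0.48 and 0.57 on the log2 scale (limma adjusted p = 1.97e-05 and 0.000274). Other genes of that list were higher: SMAD4, the common partner of receptor-activated SMADs, by 0.45, SMAD2, a receptor-activated SMAD, by 0.40, and SKIL, a SMAD corepressor, by 0.54 (limma adjusted p = 0.000387, 0.00176 and 0.00127).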
